A study of Homo sapiens with 30 samples.

Results

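CYC065 was examined in 1 of the SH-EP lines, the one that carries MYCN T58A S62A, by setting its 3 CYC065 libraries against its 3 DMSO libraries. These are 6 of the 30 RNA-Seq libraries of the series, which cover 5 lines and both treatments. SH-EP is an established human neuroblastoma (NB) line of mesenchymal type that makes no MYCN of its own. The derived line makes the double mutant MYCN from a stable retroviral transgene under an exogenous promoter, and all 6 libraries share this background. Cells received 1 μM CYC065 or DMSO for 6 hours. The sources used here do not say whether the 3 libraries of a group came from separate cultures. The p-values therefore measure only the spread between libraries within groups, which the test pooled over all 10 groups of the series. The libraries of each group are named A, B, and C.

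CYC065 inhibits CDK9 and CDK2. CDK9 with a cyclin T subunit forms P-TEFb, the kinase that releases RNA polymerase II from its pause near the promoter into elongation, and mRNAs with short half-lives are the first to run down when it is blocked. CDK2 with cyclin E or cyclin A drives entry into and passage through S phase. MYCN is a TF that pairs with MAX, and in its conserved degron, S62 is phosphorylated first and T58 next before the protein is ubiquitinated and degraded. Both residues are alanine in the double mutant. The stretch of the reference gene that encodes this degron is given to show the mutated codons. It lies in exon 2 of MYCN at chr2:16082349-16082381 of GRCh37, on the plus strand, and covers codons 55 to 65, with codon 58 (threonine) and codon 62 (serine) in capitals.
MYCN codons 55 to 65: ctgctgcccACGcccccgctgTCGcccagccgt

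The values are FPKM, which are fragment counts relative to transcript length and library size, for 26228 genes and 92 ERCC spike-ins, RNAs that were added in proportion to cell number. Tests by limma on log2(FPKM + 0.1) covered the 11575 genes whose mean over the 30 libraries reached 1 FPKM, and each change was calculated on values scaled to the spike-ins and on values as deposited. Changes on this log2 scale understate those of low genes. The number of reads is unknown, and the low FPKM steps gave relative depths of 0.747 to 1 in the DMSO libraries and 0.616 to 0.66 in the CYC065 libraries. Correlations of log2 levels were 0.978 to 0.981 within groups and 0.951 to 0.963 between them, and no pair of libraries was identical. All 12 mesenchymal markers had a mean of at least 1 FPKM. As deposited, their summed level was 3062 to 3225 FPKM in DMSO and 4846 to 4919 in CYC065. Their median log2 change was 0.39 as deposited and -0.69 scaled to the spike-ins. Of 12 adrenergic markers, 2 reached a mean of 1 FPKM, and the list summed to 18.8 to 21.7 FPKM in DMSO and 12.3 to 14.4 in CYC065. Another 6, among them PHOX2A and DBH, were listed at 0 in all 6 libraries. Of the markers of blood, endothelial, and epithelial cells, 1 of 10, 1 of 6, and 3 of 8 reached 1 FPKM. The epithelial list, which holds KRT8 and KRT18, summed to 546 to 578 FPKM in DMSO and 860 to 878 in CYC065.

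Scaled to the spike-ins, CYC065 lowered most of the transcriptome of the double mutant line. At an adjusted p under 0.05, 8829 genes were lower (76.3%) and 214 were higher (1.85%), and the median log2 change of all tested genes was -0.97. As deposited, 3956 genes were lower (34.2%) and 4466 were higher (38.6%), with a median of 0.07. On both scalings together, 3956 genes were lower (34.2%) and 212 were higher (1.83%), and 2338 genes were lower to the spike-ins but higher as deposited. The spike-ins set these values against the number of cells, but in bulk libraries fewer cells of 1 kind among them and less RNA per cell of that kind cannot be told apart.

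**Figure D1:**
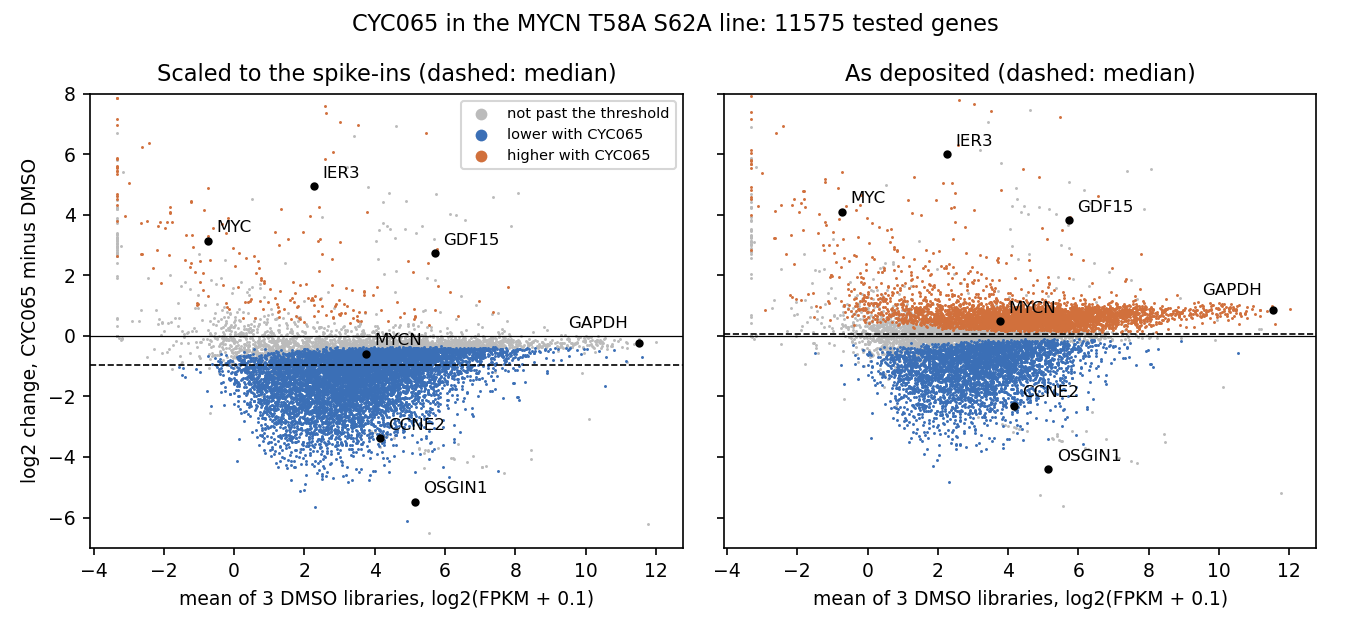
Log2 change with CYC065 (y axis) against the mean DMSO level (x axis, log2 of FPKM + 0.1) for the 11575 tested genes, 1 point per gene, scaled to the spike-ins (left) and as deposited (right). The dashed medians lie at -0.97 and 0.07, most points on the left lie below 0, and 23 points on the left and 25 on the right lie outside the axis range.

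The fall was seen in each of the 3 treated libraries, but not to the same depth. Against the mean of the DMSO libraries, the median gene was at -0.90, -1.25, and -0.79 in CYC065 libraries A, B, and C, and at 0.17, 0.02, and -0.19 in the DMSO libraries. Of 11388 genes whose mean reached 1 FPKM in the 6 libraries, 93.3% ± 2.73 (SD, n = 3) were below the DMSO mean per treated library after spike-in scaling, and 46.6% ± 0.226 as deposited. The factors that equalized the spike-ins ranged from 1.58 to 2.01 in DMSO and from 0.697 to 0.972 in CYC065 and did not overlap. The sum fell less than the median gene: the summed level of all genes changed by -0.41 on the log2 scale after spike-in scaling, from between 702000 and 918000 in DMSO to between 504000 and 692000 in CYC065. As deposited, the same sum rose from 454172 ± 8080 to 720185 ± 7766 FPKM (SD, n = 3 each), a log2 ratio of 0.67. When FPKM were instead divided by their sum in each library, 7290 genes were lower and 789 higher with a median of -0.56, so a gene called higher as deposited is higher only relative to that scale.

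MYCN itself (GRCh37 chromosome 2, 16080672 to 16087129, plus strand) was at 15.7, 9.06, and 15.7 FPKM in the DMSO libraries and 18.4, 20.1, and 16.5 in the CYC065 libraries. The deposited values of the groups did not overlap, because all treated libraries lay above all DMSO libraries, although DMSO library B stood below the other DMSO libraries. The log2 change was 0.48 ± 0.17 (SE) as deposited (adjusted p = 0.0133) and -0.59 ± 0.22 scaled to the spike-ins (adjusted p = 0.0188). The rise as deposited was 0.216 without DMSO library B and 0.41 without CYC065 library B and then did not pass the test, nor did either change pass it in a fit of the 2 groups alone. The fall to the spike-ins did not pass it without DMSO library A (-0.38), DMSO library C (-0.553), or CYC065 library B (-0.525). MYCN thus lay above the median gene on both scales. The scales differ by 1 factor per library, so the position of a gene or list relative to the median of all genes is nearly the same on both. The reads do not distinguish the transgene from the endogenous gene, and whether the transgene holds the untranslated regions is not stated in the sources used here.

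MYC (chromosome 8, 128747680 to 128755197, plus strand), the MYC family gene that SH-EP cells express without a transgene, rose on both scales. It was at 0.377, 0.494, and 0.635 FPKM in the DMSO libraries and 10.8, 8.51, and 11.1 in the CYC065 libraries, and the groups lay far apart. The change was 3.14 ± 0.22 to the spike-ins (adjusted p = 4.29e-12) and 4.10 ± 0.17 as deposited. Among the 11 tested genes of the MYC network, 9 fell and 2 rose to the spike-ins, and 7 fell and 3 rose as deposited, with medians of -1.38 and -0.31. This count, and that of every other list, stands against 76.3% lower and 1.85% higher to the spike-ins and 34.2% lower and 38.6% higher as deposited over all genes. The other gene that rose on both scales was MXD1, a MAX partner that represses MYC targets, at 1.31, 1.04, and 0.914 FPKM in DMSO and 3.60, 3.36, and 3.45 in CYC065. MAX, the obligate partner of MYC and MYCN, fell by 1.38 to the spike-ins, from 29.1, 35.0, and 26.5 to 24.2, 24.6, and 24.0 FPKM. MGA and MNT, both MAX-binding repressors, were among the deepest falls of the network at -3.62 and -2.33 to the spike-ins and -2.57 and -1.28 as deposited.

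The genes of the drug's own pathway did not change together, and their counts were near those of all genes. Of 27 tested genes of P-TEFb and pause release, 22 fell and 1 rose to the spike-ins, and 13 fell and 10 rose as deposited (medians -1.22 and -0.15), against 76.3% lower to the spike-ins and 34.2% lower and 38.6% higher as deposited over all genes. CDK9 was at 19.4, 17.8, and 21.2 FPKM in the DMSO libraries and 14.8, 15.8, and 14.98 in the CYC065 libraries, with changes of -1.43 and -0.35 to the spike-ins and as deposited, and both fell past the threshold. Its activating subunit CCNT1 was at 13.8, 15.3, and 14.3 FPKM in the DMSO libraries and 28.7, 30.2, and 31.4 in the CYC065 libraries, rising as deposited (1.05 ± 0.09, adjusted p = 1.92e-10) and showing -0.02 ± 0.17 to the spike-ins (adjusted p = 0.924). The second cyclin T gene, CCNT2, had values of 0.18 and 1.25. EAF1, a partner of the ELL elongation factors, was the 1 gene of the list that rose on both scales (0.59 and 1.66).

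The genes whose products hold P-TEFb inactive in the 7SK complex fell to the spike-ins, to different depths. MEPCE, the enzyme that caps 7SK RNA, was at 59.4, 60.03, and 64.3 FPKM in the DMSO libraries and 7.86, 5.50, and 5.70 in the CYC065 libraries and fell by 4.34 to the spike-ins (adjusted p = 2.62e-14) and by 3.27 as deposited. HEXIM2 fell from 1.88, 1.58, and 1.97 to 0.332, 0.171, and 0.355 FPKM (-3.29 and -2.34). HEXIM1, the main inhibitor subunit, was at 14.1, 13.2, and 14.8 FPKM in the DMSO libraries and 14.1, 14.8, and 13.3 in the CYC065 libraries, overlapped between groups as deposited (0.01 ± 0.10), and fell by 1.06 to the spike-ins. LARP7, which binds the end of 7SK, had -1.22 and -0.15, and the second value did not pass the test. NELFA, a subunit of the pausing factor NELF, fell by 2.78 to the spike-ins, whereas its partners NELFB, NELFCD, and NELFE had -0.85, -0.56, and -0.71.

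Other transcriptional kinases also differed within complexes. Of 15 tested genes, 12 fell and 0 rose to the spike-ins, and 7 fell and 6 rose as deposited. CDK12, which phosphorylates the polymerase during elongation, fell from 18.2, 18.1, and 17.1 to 4.63, 4.16, and 4.05 FPKM (-3.10 ± 0.19 to the spike-ins, -2.03 ± 0.08 as deposited). Its cyclin partner CCNK was at 18.8, 19.05, and 17.4 in DMSO and 44.1, 40.5, and 41.7 in CYC065 (0.11 and 1.19), so the kinase fell on both scales, while the cyclin rose as deposited and did not pass the test to the spike-ins. CDK8, the kinase of the Mediator complex, fell by 2.67 to the spike-ins and its cyclin CCNC by 0.61. Of 29 Mediator genes, 27 fell and 1 rose to the spike-ins, MED7 most (-3.04), and 16 fell and 7 rose as deposited. The 1 that rose was MED26, the subunit that docks elongation factors, from 3.70, 1.84, and 3.53 to 15.3, 14.3, and 14.1 FPKM (1.24 and 2.29). POLR2A, the catalytic subunit of RNA polymerase II, fell from 36.2, 29.0, and 31.0 to 24.0, 22.9, and 23.2 FPKM (-1.53 and -0.45). Of the 12 RNA polymerase II subunit genes, POLR2A and POLR2D were the 2 that fell as deposited, and the other 10 rose on that scale.

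**Figure D2:**
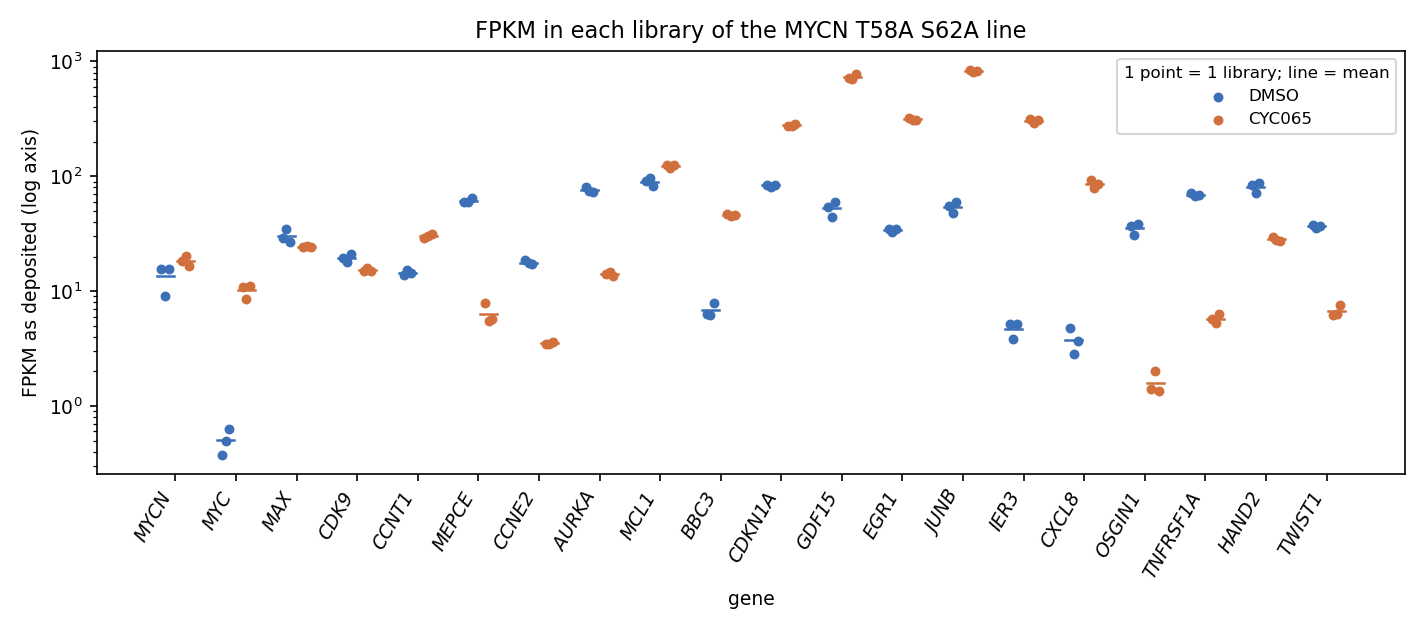
FPKM as deposited on a log axis (y axis) for 20 named genes (x axis), with 1 point per library and a line at the mean of each group of 3. The libraries of a group lie close together, MYC, BBC3, GDF15, EGR1, JUNB, IER3, and CXCL8 lie higher with CYC065, and MEPCE, CCNE2, AURKA, OSGIN1, TNFRSF1A, HAND2, and TWIST1 lower.

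By rule, the 12 genes with the largest falls were named among the 2708 with at least 5 FPKM in DMSO that fell on both scales with no overlap of libraries on either. OSGIN1 (GRCh37 chromosome 16, 83964916 to 83999937, plus strand), an oxidative stress response gene, led them at 36.6, 30.8, and 38.5 FPKM in the DMSO libraries and 1.39, 2, and 1.35 in the CYC065 libraries. The change was -5.47 ± 0.25 to the spike-ins (adjusted p = 4.12e-15) and -4.41 ± 0.20 as deposited. AXIN1, a scaffold of the complex that degrades beta-catenin, was at 9.87, 7.24, and 10.9 FPKM in the DMSO libraries and 0.806, 0.311, and 0.698 in the CYC065 libraries (-4.82 and -3.80 on the 2 scales). TFAP4, a helix-loop-helix TF and known MYC target, was at 14.5, 10.9, and 17.4 FPKM in the DMSO libraries and 0.672, 1.61, and 0.836 in the CYC065 libraries (-4.77 and -3.72). These DMSO values exceeded the treated ones severalfold in every pairing of libraries.

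Signaling genes made up several of the others. TNFRSF1A, the main TNF receptor, was the most highly expressed of the 12 and was at 71.5, 67.2, and 69.3 FPKM in the DMSO libraries and 5.70, 5.24, and 6.32 in the CYC065 libraries (-4.65 and -3.57). PIK3R1, the regulatory subunit of PI3K, was at 6.69, 7.32, and 6.72 FPKM in the DMSO libraries and 0.411, 0.435, and 0.513 in the CYC065 libraries (-4.69 and -3.67). GDF6, a ligand of the BMP family, was at 5.36, 5.62, and 5.85 FPKM in the DMSO libraries and 0.478, 0.198, and 0.360 in the CYC065 libraries (-4.72 and -3.73), and FAM83G, a regulator of BMP and WNT signaling, was at 9.42, 6.77, and 9.14 FPKM in the DMSO libraries and 0.749, 0.700, and 0.396 in the CYC065 libraries (-4.64 and -3.60). The rest were FBXO34, an F-box protein gene (-4.77 and -3.73), GTF2E1, a subunit of the general factor TFIIE (-4.62 and -3.60), CSRP2BP, a histone acetyltransferase subunit gene (-4.62 and -3.61), SMG9, of nonsense-mediated decay (-4.61 and -3.56), and the zinc finger gene ZNF584 (-4.58 and -3.54).

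For rising genes the rule took the 12 largest of 127, with the 5 FPKM asked of the CYC065 mean in place of the DMSO mean, so genes near 0 in DMSO could enter. IER3, an immediate early regulator of apoptosis (GRCh37 chromosome 6, 30710976 to 30712325, minus strand), was at 5.12, 3.83, and 5.18 FPKM in the DMSO libraries and 317, 291, and 309 in the CYC065 libraries, a change of 4.94 ± 0.42 to the spike-ins (adjusted p = 1.07e-10) and 6.00 ± 0.35 as deposited. TNF, the inflammatory cytokine, was listed at 0, 0, and 0.0777 FPKM in DMSO and 7.71, 3.42, and 4.65 in CYC065 (5.05 and 5.39). CSF2, encoding the cytokine GM-CSF, went from 0, 0.790, and 0.197 to 12.2, 8.98, and 9.00 FPKM (4.42 and 5.08). TNF and its receptor gene TNFRSF1A therefore moved in opposite directions. EID3, a subunit of the SMC5/6 complex, went from 2.25, 2.04, and 2.97 to 87.1, 93.9, and 101 FPKM (4.18 and 5.23), and it lies inside TXNRD1 on the same strand, which itself had -1.24 and -0.16.

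Most of the other largest rises came from near 0 and from rows that overlap or resemble other genes. MIR663AHG, a long noncoding RNA, went from 0, 0.151, and 0.113 to 19.5, 23.9, and 20.3 FPKM. The row of MIR663A, a microRNA of that host, was listed at 0, 0, and 731 and 56410, 47580, and 57490 FPKM, a value that depends on the very short length of the feature. RNVU1-8 (a U1 variant), HIST1H4E (a histone H4 gene), and TYRO3P (a pseudogene of the kinase gene TYRO3) were listed at 0 in all 3 DMSO libraries and at 28.1, 26.2, and 27.2, 7.58, 5.06, and 8.39, and 5.36, 5.01, and 4.64 FPKM in CYC065. SUMO4, an intronless gene inside TAB2, went from 0.282, 0, and 0.708 to 10.0, 13.0, and 10.8 FPKM, and HIST3H2BB from 0.552, 0, and 0 to 4.52, 4.93, and 5.84. ZFP91-CNTF, a readthrough of neighboring genes, went from 0.01, 0.01, and 1.49 to 11.98, 11.4, and 10.4 FPKM. Reads of near-identical or overlapping genes may have been split by the quantification, so these values are uncertain. FAM71A, at 0.192, 0, and 0 FPKM in DMSO and 17.6, 13.95, and 13.4 in CYC065, begins 3697 bases beyond the end of ATF3 on the same strand, and ATF3 had 3.19 and 4.26.

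Immediate early genes, the TF and feedback genes that respond first to stimuli, stood above the median of all genes on both scales. Of 33 tested, 14 rose and 9 fell to the spike-ins, and 25 rose and 3 fell as deposited, with medians of 0.36 and 1.44. EGR1 (GRCh37 chromosome 5, 137801168 to 137804992, plus strand), a zinc finger TF, was at 34.6, 32.9, and 34.8 FPKM in the DMSO libraries and 322, 309, and 312 in the CYC065 libraries. It changed by 2.12 ± 0.20 to the spike-ins (adjusted p = 7.12e-10) and by 3.20 ± 0.06 as deposited. JUNB was at 55.2, 47.5, and 59.8 FPKM in the DMSO libraries and 842, 810.3, and 822 in the CYC065 libraries (2.85 and 3.93). JUN, the core AP-1 subunit, was at 9.54, 8.85, and 12.1 FPKM in the DMSO libraries and 62.4, 61.97, and 58.8 in the CYC065 libraries (1.52 and 2.59). ATF3, a stress-induced TF, went from 4.71, 5.95, and 5.52 to 113, 102, and 98.0 FPKM (3.19 and 4.26). The groups of these genes did not overlap on either scale.

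FOS, the best known partner of JUN, passed the test on 1 scale. It was at 41.5, 35.1, and 41.9 FPKM in the DMSO libraries and 120.3, 114, and 107 in the CYC065 libraries, with 1.52 ± 0.09 as deposited and 0.45 ± 0.21 to the spike-ins (adjusted p = 0.0573), where the groups overlapped. JUND, a JUN family gene that most cells express at rest, fell on both scales from 31.2, 22.1, and 35.2 to 15.3, 18.4, and 18.6 FPKM (-1.81 and -0.74). SRF, the TF that binds CArG boxes in the promoters of some of these genes, also fell (-1.36 and -0.28), as did SPRED1, an inhibitor of RAS signaling (-1.89 and -0.83). Without CYC065 library B, which had the deepest spike-in scaled fall, 18 of the 33 rose to the spike-ins and 8 fell.

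NF-κB pathway and target genes had a higher median than all genes on both scales. Of 18 tested, 9 rose and 4 fell to the spike-ins, and 14 rose and 3 fell as deposited (medians 0.51 and 1.59). Some passed the filter only through treated libraries: with the filter set on the 15 DMSO libraries, 13 were tested, of which 5 rose and 4 fell to the spike-ins and 9 rose and 3 fell as deposited. CXCL8 (GRCh37 chromosome 4, 74606236 to 74609433, plus strand), the neutrophil chemokine interleukin 8, was at 4.80, 2.85, and 3.66 FPKM in the DMSO libraries and 92.1, 78.9, and 84.8 in the CYC065 libraries. Its change was 3.43 ± 0.22 to the spike-ins (adjusted p = 6.57e-13) and 4.49 ± 0.15 as deposited. The chemokine genes CCL2 and CXCL3 went from 1.26, 0, and 0.421 to 9.95, 8.97, and 5.64 FPKM and from 0.143, 0, and 0.361 to 3.92, 5.86, and 4.17. TNFAIP3, a feedback inhibitor of the pathway, went from 0.879, 0.850, and 0.918 to 16.4, 14.2, and 13.2 FPKM (2.89 and 3.90), and NFKBIA, the main inhibitor IκBα, had 0.67 and 1.75. The 3 genes that fell on both scales were RELB, an NF-κB subunit (-1.73 and -0.66), NFKBIE, an inhibitor of the family (-1.47 and -0.41), and TNFAIP2, a TNF-induced gene (-1.62 and -0.57). IER3 counts in this list and among the immediate early genes.

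The p53 pathway genes were split between rises and falls. Of 28 tested, 11 rose and 10 fell to the spike-ins, and 23 rose and 2 fell as deposited (medians -0.17 and 0.91). GDF15 (GRCh37 chromosome 19, 18485541 to 18499986, plus strand), a secreted stress cytokine, was at 54.4, 44, and 59.8 FPKM in the DMSO libraries and 720.4, 707, and 782 in the CYC065 libraries. The change was 2.73 ± 0.21 to the spike-ins (adjusted p = 1.13e-11) and 3.81 ± 0.10 as deposited. GADD45A, of the DNA damage response, was at 29.0, 30.6, and 33.0 FPKM in the DMSO libraries and 375, 363, and 353 in the CYC065 libraries (2.48 and 3.55), and BTG2, an antiproliferative gene, went from 6.07, 8.03, and 6.25 to 85.3, 80.6, and 82.6 FPKM (2.53 and 3.60). CDKN1A, which encodes the CDK inhibitor p21, was at 83.9, 81.2, and 84.5 FPKM in the DMSO libraries and 276, 272, and 283 in the CYC065 libraries and rose on both scales (0.66 ± 0.18 to the spike-ins, adjusted p = 0.00247; 1.73 ± 0.05 as deposited).

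MDM2, the ubiquitin ligase that degrades p53 and is also its target, was at 16.8, 21.1, and 15.8 FPKM in the DMSO libraries and 29.0, 28.1, and 33.4 in the CYC065 libraries, with 0.76 ± 0.09 as deposited and -0.32 ± 0.20 to the spike-ins (adjusted p = 0.149), where the groups overlapped. The members that fell on both scales were XPC (-2.31 and -1.24), which recognizes DNA lesions, and POLK (-1.31 and -0.24), a translesion polymerase. PLK3 had -1.26 and -0.20 and passed the test only to the spike-ins.

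Genes of the BCL2 family, which controls the mitochondrial step of apoptosis, did not move together. Of 11 tested genes, 8 fell and 2 rose to the spike-ins, and 2 fell and 6 rose as deposited (medians -0.67 and 0.41). The 2 that rose on both scales were the BH3-only genes BBC3 (PUMA), at 6.37, 6.21, and 7.95 FPKM in the DMSO libraries and 46.5, 44.8, and 46.1 in the CYC065 libraries (1.66 ± 0.24 to the spike-ins, adjusted p = 5.95e-07), and PMAIP1 (NOXA), at 29.7, 30.04, and 25.3 FPKM in the DMSO libraries and 108, 101, and 92.8 in the CYC065 libraries (0.75 ± 0.19, adjusted p = 0.00109). Among the survival genes, MCL1, whose mRNA and protein are short lived, was at 90.2, 96.2, and 82.1 FPKM in the DMSO libraries and 125, 118, and 126 in the CYC065 libraries. It fell by 0.62 to the spike-ins (adjusted p = 0.00458), less than the median gene, and rose by 0.46 as deposited. BCL2L1 (BCL-XL) fell from 22.6, 23.5, and 24.3 to 18.8, 17.8, and 18.6 FPKM (-1.43 and -0.35), and the pore-forming BAK1 and BAX had -2.24 and -1.17 and -0.67 and 0.41, respectively, both past the threshold on both scales.

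Genes of the death receptor pathway and its inhibitors mostly fell. To the spike-ins, 16 of 17 fell and 0 rose, against 76.3% of all genes lower, and as deposited 10 fell and 4 rose (medians -1.57 and -0.54). Besides TNFRSF1A, the adaptor gene FADD fell from 24.3, 20.3, and 21.3 to 3.49, 4.63, and 4.80 FPKM (-3.40 and -2.33) and the initiator caspase gene CASP8 had -2.22 and -1.15. BIRC3, an inhibitor of apoptosis induced by NF-κB, was the 1 gene that did not fall to the spike-ins (0.12, adjusted p = 0.719) and rose as deposited (1.14).

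Cell cycle genes mostly fell, as did all genes to the spike-ins. Of 24 genes of CDK2 and the G1/S transition, 22 fell and 1, CDKN1A, rose to the spike-ins, and 12 fell and 8 rose as deposited (medians -1.26 and -0.18), against 76.3% and 34.2% of all genes lower on the 2 scales. CDK2, the second target of the drug, was at 46.2, 35.3, and 41.9 FPKM in the DMSO libraries and 49.2, 52.9, and 49.9 in the CYC065 libraries (-0.77 and 0.31). Its cyclin genes fell on both scales: CCNE2 was at 18.5, 17.4, and 17.2 FPKM in the DMSO libraries and 3.46, 3.44, and 3.64 in the CYC065 libraries (-3.37 ± 0.19 to the spike-ins, adjusted p = 1.76e-13), CCNE1 went from 13.7, 11.99, and 13.1 to 7.36, 9.66, and 9.49 FPKM (-1.63 and -0.55), and CCNA2 had -2.41 and -1.33. CCND1, the D-type cyclin, was at 86.9, 90.3, and 88.7 FPKM in the DMSO libraries and 94.0, 90.8, and 97.1 in the CYC065 libraries, and its change as deposited did not pass the test although the groups did not overlap (0.08 ± 0.04, adjusted p = 0.0837). E2F5, a repressor E2F, fell furthest, from 14.3, 17.2, and 14.8 to 1.34, 1.14, and 1.65 FPKM (-4.46 and -3.41), and E2F8 had -3.17 and -2.12.

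Of 30 replication and mitosis genes, 27 fell and 0 rose to the spike-ins, and 18 fell and 11 rose as deposited. The mitotic kinase gene AURKA was at 80.2, 74.0, and 73.2 FPKM in the DMSO libraries and 14, 14.6, and 13.7 in the CYC065 libraries (-3.49 and -2.42), and AURKB (-2.37 and -1.29) and the spindle motor KIF11 (-2.63 and -1.55) also fell. The S phase genes MCM7, RRM1, and TYMS were at the other end, with 0.72, 0.66, and 0.80 as deposited and -0.35, -0.41, and -0.28 to the spike-ins. Of these 3, RRM1 passed the test on both scales and the others as deposited only. All 24 genes of homologous recombination and the damage response fell to the spike-ins, and 13 fell and 5 rose as deposited (medians -1.50 and -0.43). BRCA2 went from 3.48, 4.21, and 3.58 to 0.564, 0.605, and 0.466 FPKM (-3.60 and -2.58), its partner PALB2 had -3.29 and -2.24, and RBBP8 (CtIP), which starts end resection, was at the upper end with -0.50 and 0.58.

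TFs of the 2 NB cell states were set side by side. Of 16 adrenergic core regulatory circuitry (CRC) and related TFs, 7 passed the filter, and all 7 fell on both scales, with medians of -2.46 and -1.42. The 7 do not include PHOX2A, a defining TF of the adrenergic state. HAND2, a helix-loop-helix TF (GRCh37 chromosome 4, 174446120 to 174451380, minus strand), was at 83.7, 71.7, and 87.6 FPKM in the DMSO libraries and 29.4, 27.9, and 27.2 in the CYC065 libraries and changed by -2.59 ± 0.19 to the spike-ins (adjusted p = 1.00e-11) and -1.52 ± 0.08 as deposited. TBX2 went from 63.5, 49.8, and 69.7 to 10.2, 11.2, and 9.96 FPKM (-3.60 and -2.52) and EYA1 from 4.37, 5.19, and 3.52 to 0.953, 0.834, and 0.757 (-3.26 and -2.22). GATA3 was at 5.74, 3.67, and 5.90 FPKM in the DMSO libraries and 3.43, 3.996, and 2.95 in the CYC065 libraries, and although it passed the test on both scales (-1.59 and -0.53), its groups overlapped as deposited.

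Of 20 tested mesenchymal TFs, 15 fell and 0 rose to the spike-ins, and 8 fell and 7 rose as deposited, with medians of -1.31 and -0.25, also below those of all genes. TWIST1 (GRCh37 chromosome 7, 19060614 to 19157259, minus strand), an inducer of mesenchymal identity, was at 37.9, 35.4, and 36.6 FPKM in the DMSO libraries and 6.23, 6.29, and 7.63 in the CYC065 libraries (-3.51 ± 0.23 to the spike-ins, adjusted p = 1.17e-12; -2.43 ± 0.13 as deposited). PRRX1, a homeobox TF of the mesenchymal CRC, was at 39.5, 39.6, and 34.0 FPKM in the DMSO libraries and 21.6, 22.2, and 23.8 in the CYC065 libraries (-1.81 and -0.74). SNAI2 was at 6.85, 4.64, and 6.84 FPKM in the DMSO libraries and 6.14, 6.74, and 7.74 in the CYC065 libraries, fell by 0.88 to the spike-ins, and overlapped as deposited (0.18 ± 0.12, adjusted p = 0.179). SOX9 was at the upper end with 0.43 (adjusted p = 0.0577) and 1.498, the latter past the threshold. The median of the 7 adrenergic TFs was lower than that of the 20 mesenchymal TFs on both scales, a difference that was not tested and that rests on the 7 adrenergic TFs these cells express.

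Extracellular matrix genes had a higher median than all genes on both scales. Of 25 such genes, 13 fell and 0 rose to the spike-ins, and 1 fell and 21 rose as deposited (medians -0.43 and 0.65). VIM, the intermediate filament vimentin, was at 1361, 1305, and 1338 FPKM in the DMSO libraries and 1981, 2015, and 1988 in the CYC065 libraries (-0.50 and 0.58). TIMP3, an inhibitor of matrix proteases, was at 14.8, 14.7, and 15.5 FPKM in the DMSO libraries and 16.2, 15.3, and 16.6 in the CYC065 libraries, with 0.09 ± 0.05 as deposited (adjusted p = 0.0738) and a fall of 0.98 to the spike-ins. THBS1, encoding thrombospondin 1, was the matrix gene that fell on both scales, from 259.7, 254, and 237 to 184, 176, and 183 FPKM (-1.54 and -0.47). COL6A1, a collagen VI chain, was nearest to no change to the spike-ins at -0.03. Without CYC065 library B, 4 of the 25 fell to the spike-ins, and when FPKM were divided by their sum, 5 were higher.

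Among 14 YAP and TEAD targets, 9 fell and 3 rose to the spike-ins, and 3 fell and 10 rose as deposited. On both scales, 3 rose, against 1.83% of all genes, and 3 fell, against 34.2%. NUAK2, a stress-related kinase, was at 5.47, 4.197, and 5.66 FPKM in the DMSO libraries and 99.99, 93.2, and 93.0 in the CYC065 libraries (3.14 ± 0.19 to the spike-ins, adjusted p = 2.66e-13). The matricellular genes CYR61 and CTGF, classic readouts of YAP and also immediate early genes, were at 228, 222, and 215 FPKM in the DMSO libraries and 1467, 1408, and 1429 in the CYC065 libraries (1.61 and 2.69) and at 173, 163, and 157 FPKM in the DMSO libraries and 617, 587, and 603 in the CYC065 libraries (0.79 and 1.87). YAP1 itself had -0.95 and 0.12 and passed the test only to the spike-ins. Of 13 TGF-beta feedback genes, 9 fell and 1 rose to the spike-ins, and 7 fell and 4 rose as deposited. The corepressor genes SKI and SKIL fell on both scales, SKI from 14.8, 13.6, and 16.2 to 1.82, 2.30, and 2.09 FPKM (-3.85 and -2.79) and SKIL at -3.10 and -2.04, whereas SMAD7, the inhibitory SMAD, rose from 8.07, 7.74, and 8.62 to 30.5, 29.3, and 28.1 FPKM (0.76 and 1.83). HES1, a NOTCH effector, rose from 17.8, 18.9, and 17.9 to 74.4, 68.4, and 65.6 FPKM (0.85 and 1.92), while ID1, ID2, and ID4, dominant-negative helix-loop-helix genes, fell on both scales (-1.57, -1.74, and -2.12 to the spike-ins).

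**Figure D3:**
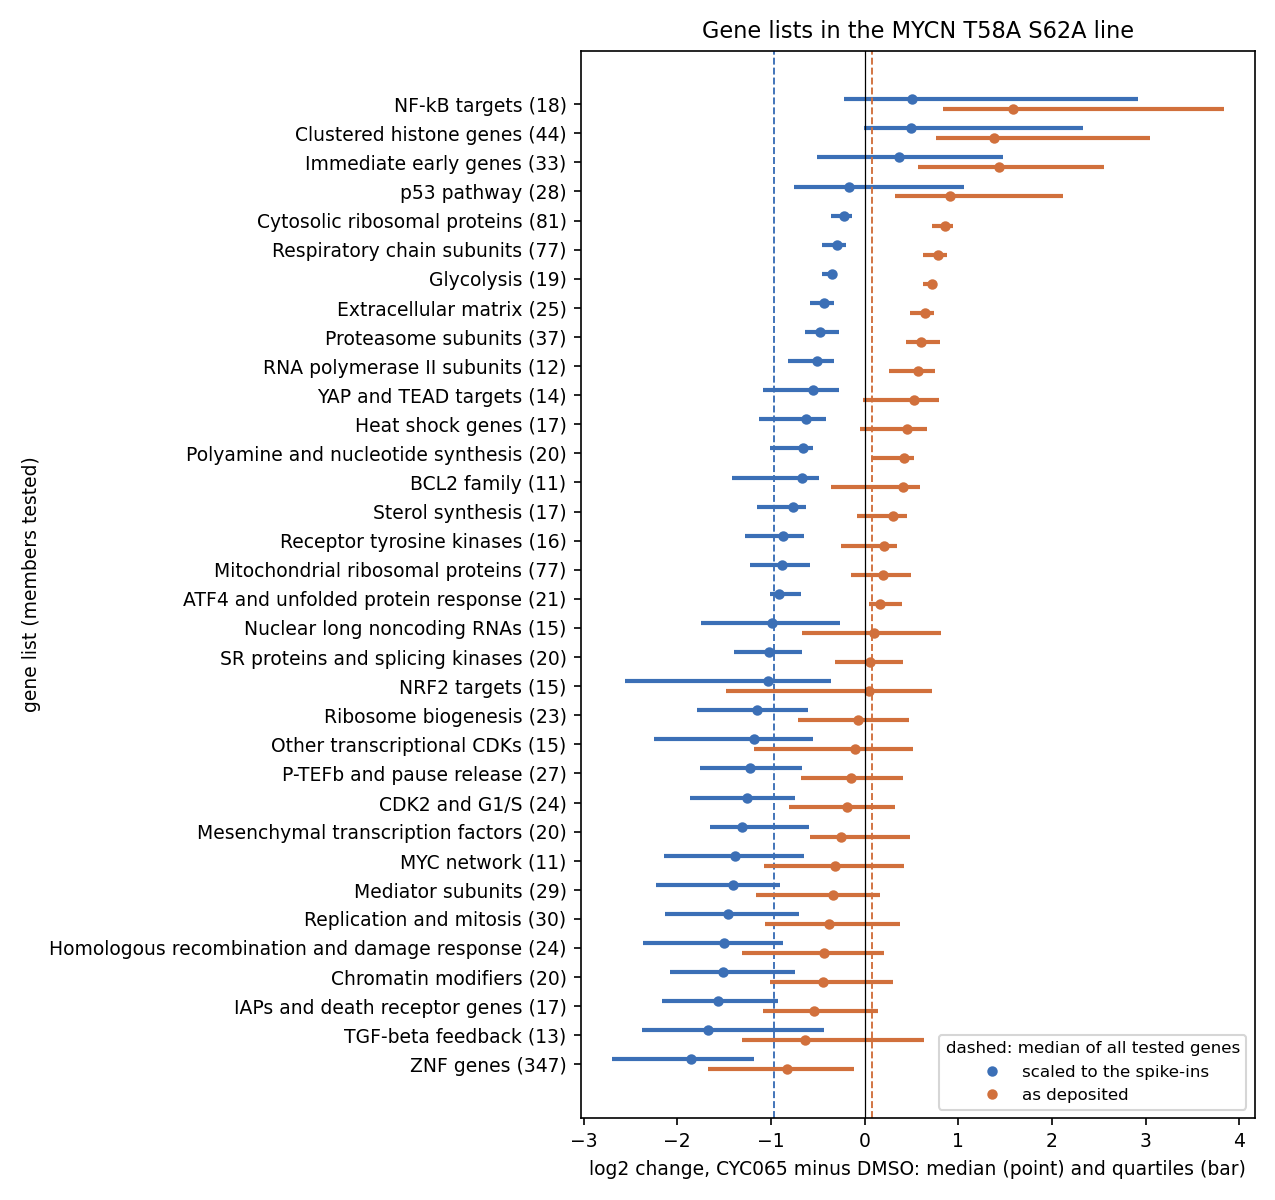
Median log2 change (points) and quartiles (bars) of gene lists with at least 11 tested members, with the number of tested members after each name, scaled to the spike-ins (blue) and as deposited (orange). The dashed lines are the medians of all genes, -0.97 and 0.07. The lists of NF-κB targets, histones, immediate early genes, and p53 targets reach furthest to the right, and ZNF genes, at -1.86 and -0.82, lie furthest to the left. Some NF-κB and histone genes passed the filter only through treated libraries and had to be higher, which bears on the position of these lists.

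Genes of abundant housekeeping complexes and pathways had medians nearer to 0 to the spike-ins than all genes. Of 81 cytosolic ribosomal protein genes, 9 fell and 0 rose to the spike-ins, against 76.3% of all genes lower, and 75 rose and 1 fell as deposited (medians -0.23 and 0.85, with a median DMSO level of 1010 FPKM). RPSA was at 685, 1043, and 839 FPKM in the DMSO libraries and 1751, 1726, and 1885 in the CYC065 libraries (0.00 and 1.08), and RPL7L1, a ribosome assembly factor that shares the name pattern, was the gene that fell as deposited (-1.32 and -0.24). Of 77 respiratory chain genes, 23 fell and 0 rose to the spike-ins, and 74 rose as deposited, with NDUFA13 at 0.10 and 1.18. Of 19 glycolysis genes, 6 fell and 0 rose to the spike-ins, and 17 rose as deposited. GAPDH was at 3077, 2834, and 2947 FPKM in the DMSO libraries and 5376, 5401, and 5221 in the CYC065 libraries (-0.23 ± 0.19 to the spike-ins, adjusted p = 0.281), and ACTB had -0.41 ± 0.20 (adjusted p = 0.0621). Of 37 proteasome genes, 23 fell and 0 rose to the spike-ins, and 35 rose and 2 fell as deposited, with PSMD5 lowest (-2.31 and -1.23). Without CYC065 library B, the falls to the spike-ins numbered 4 ribosomal protein, 9 respiratory chain, 3 glycolysis, and 12 proteasome genes. Divided by their sum, FPKM called 43 ribosomal protein genes and 1 glycolysis gene higher. Ribosomal protein genes have many near-identical pseudogenes, which makes single values uncertain.

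Mitochondrial ribosomal proteins followed the median gene instead, with 68 of 77 lower to the spike-ins, 18 lower and 42 higher as deposited, and medians of -0.88 and 0.20. Ribosome biogenesis genes, many of which are MYC targets, fell in 20 of 23 cases to the spike-ins, and 9 fell and 9 rose as deposited (medians -1.15 and -0.07). RRS1, needed for large subunit assembly, had -2.94 and -1.87, and UBTF, the RNA polymerase I factor, had -2.52 and -1.44, whereas FBL, which methylates ribosomal RNA, had -0.19 and 0.89 and did not pass the test to the spike-ins. Among 20 polyamine and nucleotide synthesis genes, 16 fell to the spike-ins, near the 76.3% of all genes, and 13 rose and 4 fell as deposited. UMPS fell most (-3.13 and -2.07).

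ZNF genes, chromatin modifiers, and SR proteins had medians at or below those of all genes on both scales. Of 347 ZNF genes, which encode zinc finger TFs, 309 fell and 9 rose to the spike-ins, and 227 fell and 48 rose as deposited (medians -1.86 and -0.82, with a median DMSO level of 3.7 FPKM). ZNF775 went from 3.87, 3.83, and 4.25 to 0.179, 0.0838, and 0.260 FPKM (-4.88 and -3.95) and ZNF616 from 3.68, 4.40, and 3.94 to 0.327, 0.305, and 0.126. The exceptions included ZNF654, which rose from 1.52, 1.76, and 1.06 to 13.4, 11.8, and 13.4 FPKM (2.06 and 3.09), and ZNF121, from 7.48, 11.4, and 8.17 to 55.4, 54.3, and 60.05 (1.59 and 2.66). Of 20 chromatin modifiers, 19 fell to the spike-ins, among them the Polycomb genes CBX2 (-3.60 and -2.53) and CBX8 (-3.25 and -2.19), and 12 fell and 5 rose as deposited (medians -1.51 and -0.45). Of 20 SR protein and splicing kinase genes, 18 fell to the spike-ins, and 9 fell and 10 rose as deposited (medians -1.02 and 0.06). CLK2, a kinase of SR proteins, fell from 23.0, 19.3, and 18.2 to 3.05, 2.30, and 2.19 FPKM (-4.03 and -2.96), whereas TRA2B had -0.00 and 1.08.

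Other stress programs had few genes that rose to the spike-ins, as did all genes (1.85%), and their counts differed between the scales. Of 15 NRF2 target and pathway genes, 11 fell and 0 rose to the spike-ins, and 7 fell and 6 rose as deposited. After OSGIN1, GCLC, which starts glutathione synthesis, fell from 19.7, 22.7, and 20.6 to 2.16, 2.69, and 2.34 FPKM (-4.15 and -3.08), and KEAP1, the sensor that degrades NRF2, had -3.30 and -2.23, while the ferritin genes FTL and FTH1 had -0.21 and -0.04. Of 17 heat shock genes, 13 fell and 0 rose to the spike-ins, and 3 fell and 12 rose as deposited. DNAJB1 fell most (-2.71 and -1.63). Of 21 genes of ATF4 and the unfolded protein response, 17 fell and 2 rose to the spike-ins, and 4 fell and 10 rose as deposited. The 2 were ATF3 and SESN2 (1.01 and 2.08), both of which other lists hold too. XBP1 fell from 48.1, 49.0, and 48.0 to 13.6, 13.3, and 15.7 FPKM (-2.84 and -1.76). Of 17 sterol synthesis genes, 14 fell and 0 rose to the spike-ins, against 76.3% of all genes lower, and 4 fell and 10 rose as deposited, with MVK at -3.13 and -2.10. Of 16 receptor tyrosine kinases, 14 fell and 0 rose to the spike-ins, and 4 fell and 7 rose as deposited, with EPHB4 at -3.05 and -2.001 and EGFR at -1.99 and -0.92.

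Replication-dependent histone mRNAs normally end in a stem-loop in place of a poly(A) tail, and these libraries were made from poly(A) RNA. Of 73 clustered histone genes, 44 passed the filter. Of these, 13 rose and 4 fell to the spike-ins, and 25 rose and 1 fell as deposited (medians 0.50 and 1.38), but at a median of 1.26 FPKM in DMSO. The filter takes the mean over all 30 libraries, so genes near 0 in DMSO passed only through the treated ones and had to be higher. With the filter set on the 15 DMSO libraries, an alternative chosen after seeing the data, 26 were tested, of which 5 rose and 5 fell to the spike-ins and 15 rose and 1 fell as deposited. HIST1H3B was listed at 0.511, 0, and 0.851 FPKM in DMSO and 12.6, 12.4, and 9.45 in CYC065, and HIST1H3D, the gene that fell as deposited, at 2.47, 2.56, and 3.19 and 0.770, 1.94, and 0.686. Near-identical copies make single histone genes uncertain. Without DMSO library B, 7 of them rose to the spike-ins. Of 15 long noncoding RNAs in a list named nuclear, 10 fell and 0 rose to the spike-ins, and 6 fell and 7 rose as deposited. The location of these RNAs in the cell was not measured. GAS5 went from 234, 294, and 262 to 152, 141, and 123 FPKM (-2.005 and -0.93), while MALAT1 had -0.15 and 0.92 and passed the test only as deposited. Rows of small RNA genes took 3.88% of all FPKM in DMSO and 11.8% in CYC065, and they are not described further.

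The change varied with the length of the spliced transcript. Protein-coding genes, 10629 in all, were put in 5 equal bins. In the bin of the shortest transcripts, from 276 to 1798 nt, the median change was 0.52 as deposited and -0.55 to the spike-ins, and 60.4% were higher as deposited. In the bin of the longest, from 5778 to 34626 nt, the medians were -0.15 and -1.22, and 28.8% were higher. The medians fell in order over the 5 bins on both scales. Median DMSO levels ran from 26.3 FPKM in the first bin to 7.62 in the last, so length and level moved together. The Spearman correlation across genes between log10 length and the change as deposited was -0.28 for spliced length and -0.13 for the span of the gene. Genes are not independent replicates, and no test was made of it.

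**Figure D4:**
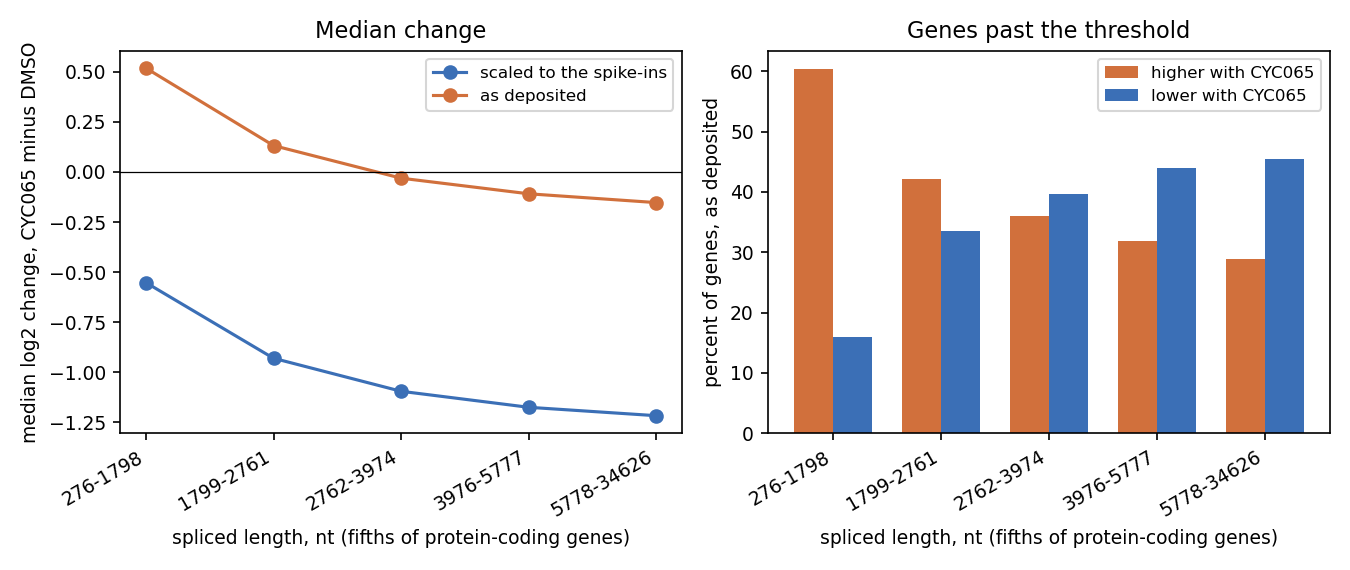
Left, median log2 change with CYC065 (y axis) in 5 equal bins of protein-coding genes by spliced length in nt (x axis), scaled to the spike-ins (blue) and as deposited (orange). Right, percent of genes in each bin past the threshold as deposited, where the share higher falls from 60.4% to 28.8% and the share lower rises from 15.9% to 45.5%.

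Structure and promoter letters of the genes that moved were compared with those of all genes, as a description. The rising set asked for 5 FPKM only of the CYC065 mean, so genes with little signal in DMSO could enter. Its members with 1 exon include the histone genes HIST1H3B, HIST1H4E, and HIST3H2BB, and SUMO4 and EID3, which lie inside other genes. The exon share of the rising genes rests partly on such members, and their span and promoter shares may do so. These values were not recalculated without them. Of 105 annotated protein-coding genes among the 127 that rose, 18 (17.1%) had 1 exon, against 2.08% of those that fell and 1.99% of all tested genes, and the median span was 10210 bp in rising and 35206 bp in falling genes. RefSeq promoters (GRCh38.p14, from 250 bases before to 50 bases after the start) were matched for 98 of the 127 rising, 2268 of the 2708 falling, and 9115 of all 11575 tested genes, and both strands were searched. TATAAA was in 19.4% of rising and 4.01% of falling promoters, 5.29% of those of tested genes, and 12% of the 27305 promoters in all. The AP-1 letters TGACTCA were in 8.16%, 2.91%, 2.92%, and 4.92% of the same sets, the E-box CACGTG in 13.3%, 11.3%, 10.6%, and 7.43%, the CArG box, which SRF binds, in 4.08%, 1.01%, 1.11%, and 1.29%, and the NF-κB site in 8.16%, 6.53%, 6.44%, and 5.72%. Among the 98 rising promoters these shares rest on 19 with TATAAA, 8 with AP-1, 13 with the E-box, 4 with the CArG box, and 8 with the NF-κB site. None of these motifs overlapped another in the promoters shown.

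The 150 bases before the start are shown for 3 rising genes and for the deepest fall, with every match in capitals. EGR1 has CArG boxes from 105 to 96 and from 83 to 74 bases upstream of the start. CXCL8 has an AP-1 match from 137 to 131 and TATAAA from 31 to 26 bases upstream, and GDF15 has TATAAA from 29 to 24. OSGIN1 has an AP-1 match from 97 to 91 bases upstream and no TATAAA in the window. A match to letters is no evidence that a factor binds there. All 4 are on the plus strand of GRCh38.p14, at chr5:138465329-138465478, chr4:73740419-73740568, chr19:18386008-18386157, and chr16:83953090-83953239 in that order.
EGR1: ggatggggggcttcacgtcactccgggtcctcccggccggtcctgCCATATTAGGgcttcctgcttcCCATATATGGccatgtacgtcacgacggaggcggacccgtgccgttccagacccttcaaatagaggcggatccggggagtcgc
CXCL8: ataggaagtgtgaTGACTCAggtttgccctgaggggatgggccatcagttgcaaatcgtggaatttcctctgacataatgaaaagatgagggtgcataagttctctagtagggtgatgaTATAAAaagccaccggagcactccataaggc
GDF15: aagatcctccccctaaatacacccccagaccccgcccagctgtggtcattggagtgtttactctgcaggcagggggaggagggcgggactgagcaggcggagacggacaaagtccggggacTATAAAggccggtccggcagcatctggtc
OSGIN1: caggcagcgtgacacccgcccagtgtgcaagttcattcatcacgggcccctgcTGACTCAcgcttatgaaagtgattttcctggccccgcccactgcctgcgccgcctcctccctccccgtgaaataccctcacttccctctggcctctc

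The response was then compared with the mean response of the WT, T58A, and S62A lines, in the same fit. Scaled to the spike-ins, 0 genes had a lower response in the double mutant line (0%) and 11 a higher one (0.095%) by limma. At an unadjusted p under 0.05, 2549 genes differed, 24 of them lower, and the median difference of all genes was 0.36, since the median change was -0.97 in the double mutant line against -1.57 in WT, -1.08 in T58A, and -1.35 in S62A. As deposited, 37 genes had a lower (0.32%) and 75 a higher response (0.648%), with a median difference of 0.005. All 11 genes were higher on both scales. The spike-in scaled count depended on how the spike-ins were summarized: it was 0 when only spike-ins whose mean reached 50 FPKM were used and 0 with their mean in place of their median. Library B of the CYC065 group bore on the count: without it, 192 genes were higher to the spike-ins, and with any other library left out 4 to 26.

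CXCL8, MYC, and CHAC1 passed the test on both scales with each of the 6 libraries left out and with a pseudocount of 1 or 0.01, but none passed it under the 2 other spike-in summaries. For MYC, the difference was 1.63 ± 0.26 to the spike-ins (adjusted p = 0.00347) and 1.197 ± 0.20 as deposited, and its own change was 1.09 in WT, 1.96 in T58A, and 1.46 in S62A to the spike-ins. MYC levels in CYC065 were 8.51 to 11.1 FPKM in the double mutant, 6.88 to 7.77 in WT, 4.04 to 5 in T58A, and 12.1 to 13.1 in S62A, and in DMSO 0.377 to 0.635, 0.992 to 1.13, 0.414 to 0.468, and 1.01 to 1.93 in the same order. The treated level lay below that of S62A, and the DMSO level overlapped that of T58A. For CXCL8, the difference was 1.68 ± 0.25 (adjusted p = 0.00290), with 2.85 to 4.80 FPKM in DMSO, below WT (5.51 to 6.45) and T58A (8.80 to 12.2) but overlapping S62A (4.09 to 5.92). In CYC065 it was at 78.9 to 92.1 FPKM, overlapping T58A (86.3 to 88.2) and above WT (69.4 to 75.5) and S62A (35.7 to 43.0).

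CHAC1, an ATF4 target that degrades glutathione, kept 2.88 to 3.24 FPKM in CYC065 against 1.17 to 1.58 in WT and 0.553 to 1.02 in T58A, with S62A at 1.90 to 2.38 (1.89 ± 0.30, adjusted p = 0.00347). In DMSO it was at 2.61 to 3.13 FPKM, overlapping WT (3 to 4.35) and S62A (1.82 to 2.80) and below T58A (7.27 to 9.06). DDIT4, an inhibitor of mTORC1, and BTG1, an antiproliferative gene, differed by 1.13 ± 0.21 and 1.18 ± 0.22. They were at 77.0 to 84.9 and 9.12 to 10.2 FPKM in CYC065, above every treated library of the other MYCN lines. In DMSO, the double mutant line had 63.2 to 75.8 FPKM of DDIT4 and 7.92 to 8.31 of BTG1. For DDIT4 this overlapped WT (58.1 to 65.4) and lay above T58A (60.9 to 62.3) and below S62A (76.5 to 82.1). For BTG1 it overlapped WT (7.59 to 8.64) and T58A (7.48 to 8.97) and lay below S62A (8.58 to 8.97). SAT1, SUSD6, ZNF654, BHLHE40, and TSC22D2 also differed, at 1.48 ± 0.30, 1.32 ± 0.23, 1.21 ± 0.25, 1.16 ± 0.24, and 1.02 ± 0.20. The spike-in scaled calls of SAT1, SUSD6, BTG1, BHLHE40, DDIT4, and TSC22D2 held in 4 of 8 alternatives (each library left out and the 2 other pseudocounts) and that of ZNF654 in 5. They were lost without DMSO library C, CYC065 library A, or CYC065 library C, and all but that of ZNF654 also without DMSO library B, with adjusted p up to 0.326. CHAC1, BTG1, DDIT4, BHLHE40, and TSC22D2 were named after their values were seen. As deposited, 4 of the 28 p53 targets had a higher and 1 a lower response in the double mutant line, and 8 of the 33 immediate early genes had a higher one, against 0.648% of all genes higher and 0.32% lower. With 1 library left out, 2 to 4 of the p53 targets and 3 to 9 of the immediate early genes were higher and 0 of either lower. To the spike-ins, 0 of the p53 targets and 1 of the immediate early genes were higher. These spike-in counts became 0 to 5 and 0 to 8 with 1 library left out.

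**Figure D5:**
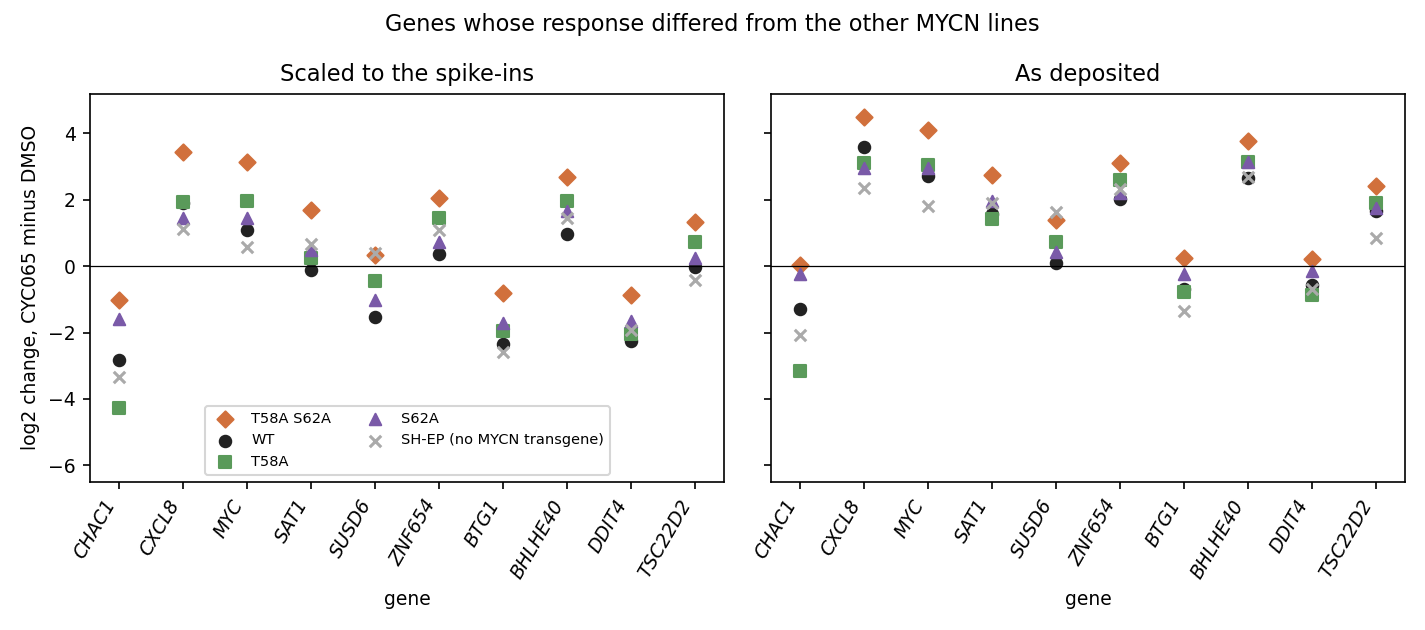
Log2 change with CYC065 (y axis) of 10 of the 11 genes (x axis) in each line, scaled to the spike-ins (left) and as deposited (right), where each mark is the difference of the means of 3 treated and 3 DMSO libraries. The T58A S62A line (diamonds) lies above WT, T58A, and S62A in every one of these genes on both scales, and SH-EP without MYCN (crosses) lies above it for SUSD6.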

How the data were processed

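RNA-Seq values of 30 SH-EP libraries were used as the authors deposited them, in FPKM for 26228 genes and 92 ERCC spike-ins. Per the study's methods, spike-ins were added by cell number, poly(A) RNA was made into stranded libraries, reads were aligned to GRCh37 (hg19) with HISAT2, and Cufflinks 2.2.1 gave FPKM. The annotation used is not given in the sources used here. The members and lists were chosen with earlier results of these data known.

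Spike-in scaled values are FPKM multiplied by a factor per library that made the median log2 level of 55 spike-ins equal. Spike-ins and genes were kept where their mean over the libraries reached 1 FPKM. Log2(value + 0.1) was fitted once over all 10 groups with limma 3.58.1 in R 4.3.3, with a mean-variance trend, and p-values were adjusted over 11575 genes by the Benjamini-Hochberg method (threshold 0.05). Errors of log2 changes are SE with 3 libraries per group. The columns carry suffixes that do not match the replicate numbers of the labels, so libraries were lettered by suffix. The method was tested on simulated data. Positions come from GENCODE 44 lifted to GRCh37, which matched 96.9% of the tested genes, and promoters from RefSeq (GRCh38.p14).

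The text names the 12 largest falls and rises, and in each list up to 3 falls and 3 rises past the threshold on each scale. It also names fixed genes and the 5 largest differences in response. BAX, BHLHE40, BTG1, CASP8, CCNA2, CCNC, CHAC1, DDIT4, LARP7, NELFB, NELFCD, NELFE, NFKBIA, TNFAIP3, TSC22D2, and genes named as neighbors were added after their values were seen. Some genes that the rule names are not reported here. Alternatives changed the pseudocount, the filter (1 set on the DMSO libraries was added after seeing the data), the groups fitted, the scaling, the spike-ins used, or left out 1 library.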

Additional observations from a re-analysis of the deposited data

Results flagged for a closer look

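For 4 genes described here, the response to CYC065 in the double mutant line differed from the mean response of the WT, T58A, and S62A lines by the limma test of that difference on both scales, with a mean of at least 5 FPKM in 1 of the groups. On the spike-in scaled log2 scale the difference was 1.68 for CXCL8, 1.63 for MYC, 1.48 for SAT1, and 1.32 for SUSD6. SAT1, which acetylates polyamines, rose from 5.46, 2.18, and 3.01 to 28.0, 20.8, and 19.8 FPKM, with changes of -0.11 in WT, 0.24 in T58A, and 0.48 in S62A to the spike-ins against 1.68 in the double mutant line. Its DMSO levels lay below those of WT (6.11 to 6.42), T58A (5.65 to 7.48), and S62A (5.76 to 6.72) and were scattered, whereas its treated levels overlapped those of T58A (16.2 to 21.2) and S62A (22.7 to 27.6) and lay above WT (17.2 to 19.5). SUSD6, a p53-induced membrane protein gene, rose from 3.46, 3.38, and 3.26 to 8.37, 8.62, and 9.80 FPKM as deposited, with 0.32 to the spike-ins against -1.53 in WT, -0.44 in T58A, and -1.02 in S62A. Where 1 library was left out, adjusted p for the spike-in scaled differences of SAT1 and SUSD6 reached 0.241 and 0.146, and the calls as deposited held in 6 and 8 of 8 alternatives. Under the 2 other spike-in summaries, none of the 4 passed the test on spike-in scaled values.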

How the results depend on the processing

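The number of genes lower to the spike-ins stayed within 1.5 times of 8829 under every alternative run. The number higher, 214, was 397 with no filter on low values and 138 with a filter at 5 FPKM. As deposited, 2353 genes were lower with the filter at 5 FPKM and 2527 higher when a 1.5-fold change was also required. With FPKM divided by their sum, an alternative chosen after seeing the data, 7290 were lower and 789 higher. Among the genes past the threshold only, median centering moved the share that were higher from 53% to 61.2% as deposited. The same share was 2.37% to the spike-ins and 9.77% after division by the sum. For the difference in response to the spike-ins, the number lower, 0, was 1 with a pseudocount of 1, 7 with no filter, and 0 to 2 with 1 library left out. The number higher, 11, was 23 with a pseudocount of 1, 28 with 0.01, 35 with no filter, 21 with the filter at 5 FPKM, 4 in a fit of the groups compared only, 0 with either other summary of the spike-ins, and 4 to 192 with 1 library left out. As deposited, the number lower, 37, was 21 in a fit of the groups compared only, 7 with the 1.5-fold requirement, 17 after division by the sum, and 15 to 81 with 1 library left out (81 without DMSO library C). The number higher, 75, was 28 with the 1.5-fold requirement, 41 after division by the sum, and 33 to 95 with 1 library left out. Among the changes of single named genes, 2979 of the values recomputed kept their direction and side of the threshold, 41 lost the threshold, 18 gained it, and 22, all with 1 library left out, changed sign. To the spike-ins, these leave-one-out values ranged from -0.038 to 0.322 for BIRC3, -0.018 to 0.28 for CCNK, -0.151 to 0.117 for CCNT1, -0.136 to 0.136 for COL6A1, -0.032 to 0.311 for ELL, -0.141 to 0.1 for FTH1, -0.135 to 0.168 for RPSA, and -0.099 to 0.141 for TRA2B. As deposited, they ranged from -0.041 to 0.085 for CHAC1, -0.036 to 0.048 for HEXIM1, and 0 to 0.275 for SNAI2. None of these 11 had passed the test on that scale. The cause was not tested, except that the filters change the genes tested. No paired analysis was possible because the numbers in the columns do not match the replicate numbers of the labels. Read totals are unknown, so counting error could not be given.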

Other observations

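Of 168 antisense RNA rows that passed the filter, 105 fell and 7 rose to the spike-ins, and 31 fell and 38 rose as deposited, with medians of -0.89 and 0.17. ZNF674-AS1 was at 2.45, 1.96, and 2.06 FPKM in the DMSO libraries and 9.36, 11.2, and 12.8 in the CYC065 libraries and changed by 1.26 ± 0.24 to the spike-ins (adjusted p = 3.16e-05) and 2.31 ± 0.19 as deposited. Its groups did not overlap on either scale.

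Of 286 rows of snoRNAs, scaRNAs, and microRNAs that passed the filter, 41 rose and 11 fell to the spike-ins, and 50 rose and 4 fell as deposited, but their median DMSO level was 0.00667 FPKM. Without CYC065 library B, 38 rose and 6 fell to the spike-ins, and with the filter set on the 15 DMSO libraries, 230 were tested, of which 33 rose and 13 fell.

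Among the 105 annotated protein-coding genes that rose, 3 lay inside another gene on the same strand (2.86%, against 1.74% of all tested genes) and 12 began within 5000 bp beyond the end of one (11.4%, against 13.3%).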
